A study of Arabidopsis thaliana with 39 samples.

Results

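The genes described here were higher in morchex than in wild type 48 h after a heat treatment, but not before the heat or at its end. morchex is an Arabidopsis thaliana line in the Columbia-0 (Col-0) background that carries morc1-2, morc2-1, morc4-1, morc5-1, morc6-3 and morc7-1, mutations in 6 MORC genes. MORC proteins are GHKL-type ATPases that compact chromatin and take part in gene silencing. The plants were 5 to 6 weeks old and RNA was sequenced from material labelled floral tissue before heat (T0), after 0.5 h of heat (T30) and 48 h into recovery (T48), and wild type (WT) Col-0 went through the same steps. There were 3, 2 and 2 morchex libraries at T0, T30 and T48, against 3 WT libraries at each time. No unheated plants are labelled for T30 or T48. A change from T0 thus cannot be told apart from an effect of time, age or handling. A second experiment compared lug, a mutant of the corepressor gene LEUNIG in the Landsberg erecta (Ler) background, with Ler, in 3 libraries each and without heat. The labels do not say that replicates came from separate plants, so p-values measure the spread between these libraries, which may be technical.

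Members were chosen on group means of TPM, a transcript abundance scaled for length to the same total in each library, with 0.5 added. At T48 a member had to be at least 3 times higher in morchex than in WT and to reach a morchex mean of 2 TPM. At T0, and again at T30, the ratio of the genotypes was limited to the range of 0.67 to 1.5. Of 33602 genes listed, 129 met the rule, and 116 of them were among the 18827 genes with enough reads to test. Since the T48 values chose the members, the T48 levels and ratios are given as a description with no test. Just inside the limit stood AT4G36430, WRKY8 and AT1G23040, with ratios of 3.00, 3.00 and 3.01. Just outside stood MLO12, CYP79A4P and AT1G36622, with 2.99, 2.99 and 2.97.

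Plant cells answer wounding, pathogens and other stress partly in the wall. Extensins are hydroxyproline-rich glycoproteins that are cross-linked into the wall by class III peroxidases. Invertases, pectin-modifying enzymes and xyloglucan endotransglucosylases reshape the polysaccharides, and chitinases and protease inhibitors act on invaders. Receptor-like proteins and receptor-like kinases at the plasma membrane sense microbial or damage signals, and WRKY transcription factors bind the W-box to regulate many defence genes. By roles assigned after the members were known, there were 17 redox and metabolic enzymes, 15 receptors and resistance proteins, 12 transporters and channels, 9 wall enzymes and invertases, 8 proteases, protease inhibitors and chitinases, 8 transcription factors, ubiquitin ligases and peptides, 7 class III peroxidases, 5 structural wall proteins and 3 lipid-transfer proteins of the AZI1 type. The other 45 had another role or none known. These roles were not assigned to all genes, so they have no share to stand beside. By annotation words, peroxidases and oxidoreductases were 5.6% of 125 annotated members, against 1.57% of 18676 tested genes. Wall words were 4.8% against 1.62%, and transporters 5.6% against 2.41%. Receptors and protein kinases were 5.6% against 5.63%, transcription factors 2.4% against 4.96% and protein degradation 2.4% against 3.73%. Defence words were 8.8% against 5.89%, lipid words 3.2% against 2.00%, seed storage words 2.4% against 0.444% and transferases 2.4% against 2.20%. Genes with no known function were 16% against 10.2%. Cytochrome P450 and auxin response words were 0% against 0.669% and 0.648%. Some annotated members were not among the tested genes, so the 2 sets differ in kind.

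Total counts lay between 12752836 and 25054384 per library in morchex and between 8606374 and 15342615 in WT, and at T48 the libraries of morchex had 24374647 and 25054384 counts, against 10451421, 9455267 and 11731207 in WT. Of 7 genes that define flower organs, 4 were at or near 0 in all 16 heat libraries: the highest values were 0.10 TPM for AP1, 0.20 TPM for AP3, 0.60 TPM for PI and 0.14 TPM for SEP2. The other 3 were detected in every library, AG between 0.87 and 2.64 TPM, SEP1 between 0.75 and 5.83 TPM and SEP3 between 2.08 and 15.8 TPM. The photosynthesis gene RBCS1A lay between 21179 and 40100 TPM in the same libraries. AP3 and PI, which specify petals and stamens, were thus absent or nearly so in material labelled floral tissue, while AG, SEP1 and SEP3 were present. Under 1 TPM in all 16 libraries were also 20 of 25 tapetum, 30 of 41 pollen, 21 of 24 ovule and seed and 3 of 4 nectary genes listed. In the Ler and lug libraries the highest values were 0.08 TPM for AP1, 0.65 TPM for AP3, 2.03 TPM for PI and 90.8 TPM for SEP3. Which tissue gave these values was not tested. In such bulk samples, fewer cells of a type and less RNA per cell cannot be told apart. Of the targeted genes, MORC1, MORC2, MORC6 and MORC7 were lower in morchex than in WT at T48, by 1.70, 2.13, 2.67 and 3.02 on the log2 scale, MORC4 was higher by 1.99, and MORC5 had too few reads to test. LUG itself had 7.47, 6.86 and 6.75 TPM in lug, against 19.8, 21.4 and 20.8 TPM in Ler.

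To show sequence upstream of members, 250 bases before the annotated start were read from the TAIR10.1 assembly of RefSeq, within whose chromosome ends all peaks of the files, on TAIR10, lie. EXT3 is shown because it had the highest T48 level, AT1G17860 because it held the most W-box cores of any member, 4, and AT5G64120 as the most abundant peroxidase and 1 of the 8 members with 3 cores. Capitals mark the W-box core TTGAC on either strand, so that GTCAA is the same core on the other strand. The sequences run 5′ to 3′ towards the gene and end at the base before its start. They lie on chr1:7455010-7455259 (minus strand) for EXT3, chr1:6148928-6149177 (plus) for AT1G17860 and chr5:25661008-25661257 (minus) for AT5G64120.
EXT3: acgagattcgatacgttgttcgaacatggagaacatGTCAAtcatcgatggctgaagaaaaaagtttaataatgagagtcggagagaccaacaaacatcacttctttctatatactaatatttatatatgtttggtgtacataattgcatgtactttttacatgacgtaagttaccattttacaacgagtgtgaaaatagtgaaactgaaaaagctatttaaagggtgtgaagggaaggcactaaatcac
AT1G17860: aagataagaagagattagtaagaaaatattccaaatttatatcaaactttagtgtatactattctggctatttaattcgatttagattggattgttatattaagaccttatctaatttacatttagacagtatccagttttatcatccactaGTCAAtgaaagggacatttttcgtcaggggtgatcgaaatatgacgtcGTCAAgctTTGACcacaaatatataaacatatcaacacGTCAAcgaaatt
AT5G64120: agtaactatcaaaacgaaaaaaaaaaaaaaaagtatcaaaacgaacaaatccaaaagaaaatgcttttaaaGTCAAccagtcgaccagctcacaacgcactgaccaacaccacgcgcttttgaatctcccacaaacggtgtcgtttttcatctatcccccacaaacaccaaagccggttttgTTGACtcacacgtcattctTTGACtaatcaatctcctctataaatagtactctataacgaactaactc

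The W-box core lay in 70 of 119 protein-coding members in this window, 58.8% (exact 95% interval 49.4 to 67.8%), against 45.0% of 26711 protein-coding promoters. Of the members, 26 held at least 2 cores, 21.8% against 14.1% of all promoters. The heat shock element core GAANNTTC, searched on both strands like every motif here, lay in 13 members, 10.9% against 9.47%. The G-box CACGTG lay in 4 members, 3.36% against 6.58%, and TATAAA in 59, 49.6% against 47.7%. A match to these letters is a description of the window and not a binding site.

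The summed level of the 129 genes was alike in the genotypes at T0 and T30, and higher at T48 in both. The sums were 217, 237 and 221 TPM in morchex at T0 and 237, 233 and 203 TPM in WT at T0. At T30 they were 246 and 198 TPM in morchex and 194, 174 and 190 TPM in WT. At T48 they were 5639 and 7602 TPM in morchex, against 1225, 1092 and 1519 TPM in WT. The 2 morchex libraries at T48 thus stood above the 3 WT libraries, and each WT library at T48 stood above all libraries of the earlier times.

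**Figure D1:**
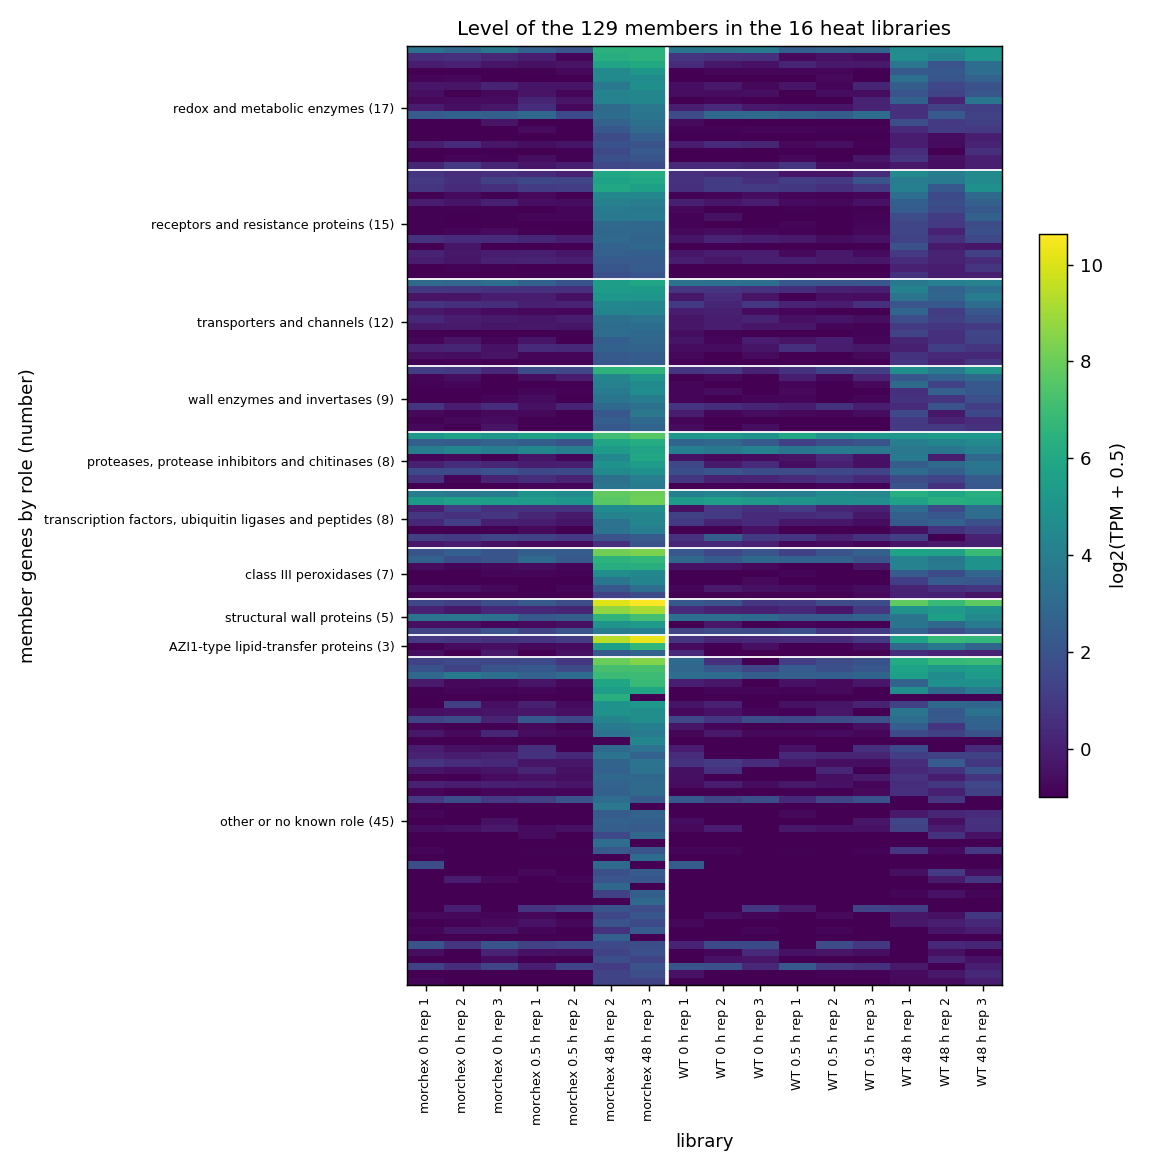
Level of each of the 129 members, as log2(TPM + 0.5), in the 16 heat libraries, with morchex on the left and WT on the right, in rows grouped by role. The 2 morchex libraries at 48 h are the brightest columns, and the 3 WT libraries at 48 h are brighter than those at 0 h and 0.5 h.

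Most members were also higher at T48 than at T0 in WT, but at a lower level than in morchex. The ratio of T48 to T0 was 2 or more for 125 of 129 members in morchex and for 88 in WT. Among 16236 genes with at least 2 TPM in morchex at T48, 20.3% had such a ratio in morchex and 12.2% in WT. The median ratio of T48 to T0 over the members was 11.4 in morchex and 2.87 in WT. The ratio of morchex to WT at T48 had a median of 3.73, and all 5 T48 libraries separated the genotypes, without overlap, for 120 of the 129. That is a share which the rule sets, and 40.4% of all genes tested were higher in morchex without overlap. All 116 members tested were without overlap, so its absence in single members named below is only a description. For 113 of the 116 members tested the edgeR fit passed the limits for morchex over WT at T48, where 2.89% of all genes did. The others were ELI3-2, DXPS1 and LECRKA4.1. The rule used the same contrast, so nothing is read from that count.

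Most members were almost silent before heat. In 81 of 129 members both genotypes had a mean under 0.5 TPM at T0, which held for 44.9% of all genes listed, and 17 members had at least 2 TPM in both. With so little RNA the 0.5 added holds a ratio near 1, so that equal levels at T0 and T30 are known closely only for the more abundant members.

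**Figure D2:**
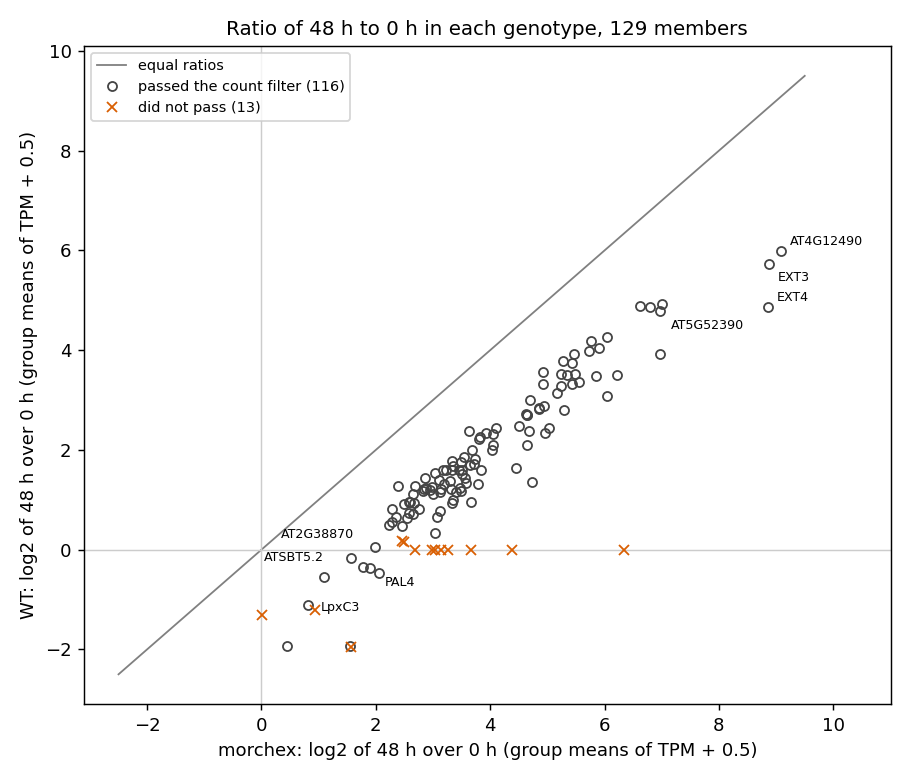
Ratio of 48 h to 0 h, as log2 of group means of TPM + 0.5, in morchex on the x axis and WT on the y axis, with 1 point per member and a line for equal ratios. All 129 points lie below the line, most lie above 0 on the y axis, and EXT3, EXT4 and AT4G12490 are farthest to the right.

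Structural wall proteins reached the highest levels of any role. EXT3, an extensin needed to build the wall scaffold, had 1074 and 1595 TPM in morchex at T48, against 224, 114 and 214 TPM in WT. At T0 it had 2.32, 1.82 and 2.92 TPM in morchex and 4.11, 3.59 and 1.3 TPM in WT, and at T30 4.27 and 2.85 TPM in morchex and 1.5, 2.75 and 2.74 TPM in WT. The genotypes overlapped at T0 only, and at T48 the lower morchex library was above the highest WT library. EXT4, another extensin, had 416 and 551 TPM in morchex at T48, against 29.8, 39.2 and 29.4 TPM in WT, and its means were 0.55 TPM in morchex and 0.64 TPM in WT at T0. Its ratio of 14.5 was the highest of the members that passed the count filter. AT1G03820, an E6-like protein, had 95.7 and 142 TPM in morchex at T48, against 10.6, 47.9 and 21.5 TPM in WT, a WT spread of over 4-fold. AT1G65690 is annotated as a hydroxyproline-rich glycoprotein of the LEA family, a name that does not by itself place it in the wall. It had 32.0 and 38.3 TPM against 11.1, 6.94 and 13.3 TPM. AT1G23040, also a hydroxyproline-rich glycoprotein, was at the limit, with 14.3 and 15.5 TPM against 5.86, 2.88 and 5.10 TPM.

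The AZI1-type lipid-transfer proteins are encoded by neighbouring genes, 3 members among 4 genes annotated on chr4:7401087-7414955. AT4G12490 had 675 and 1248 TPM in morchex at T48, against 53.5, 112 and 103 TPM in WT. It was the second most abundant member, after EXT3, and had 1.27 TPM in morchex and 0.91 TPM in WT at T0. AT4G12500 had 46.8 and 104 TPM in morchex at T48, against 7.71, 12.5 and 6.14 TPM in WT. AZI1 itself, which in Arabidopsis is needed for priming of systemic immunity, was far less abundant, with 4.39 and 6.11 TPM against 0.93, 0.67 and 0.57 TPM. No library of one genotype overlapped the other for any of these genes at T48. They belong to 1 gene family, and reads may have been split between them by the counting.

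Class III peroxidases oxidise wall phenolics and cross-link extensins. There were 7, with ratios at T48 from 3.00 to 4.92. AT5G64120 had 280 and 323 TPM in morchex at T48, against 52.8, 49.6 and 113 TPM in WT, and means of 4.10 TPM in morchex and 3.29 TPM in WT at T0. AT2G37130 had 92.4 and 105 TPM against 17.65, 11.2 and 30.3 TPM, and PRX52 had 75.0 and 81.6 TPM against 17.3, 14.1 and 31.1 TPM. In each of these genes WT replicate 3 was the highest WT library. Prx37, AT5G19880, PA2 and AT4G36430 were lower, with morchex means at T48 of 23.9, 14.9, 6.50 and 2.33 TPM against 4.66, 3.46, 0.94 and 0.44 TPM in WT.

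Wall enzymes and invertases included 9 members. ATBFRUCT1, a wall-bound invertase that splits sucrose outside the cell, had 92.1 and 95.8 TPM in morchex at T48, against 27.1, 13.5 and 33.1 TPM in WT. The other invertase-like member, cwINV6, had 10.7 and 14.4 TPM against 1.13, 1.22 and 3.14 TPM. XTR6, which joins and cuts xyloglucan chains, had 19.0 and 32.1 TPM against 3.88, 5.71 and 7.36 TPM. The morchex libraries agreed closely for ATBFRUCT1 and differed more for XTR6, and in neither did the genotypes overlap. AT2G45220, of the pectin methylesterase and inhibitor superfamily, had means of 19.6 TPM in morchex and 4.50 TPM in WT. AT2G41800 of the DUF642 family had 19.1 TPM in morchex and 3.52 TPM in WT, AT3G10320 of glycosyltransferase family 61 had 6.23 TPM and 0.98 TPM, and CSLG2, a cellulose synthase-like protein, had 7.80 TPM and 1.72 TPM.

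**Figure D3:**
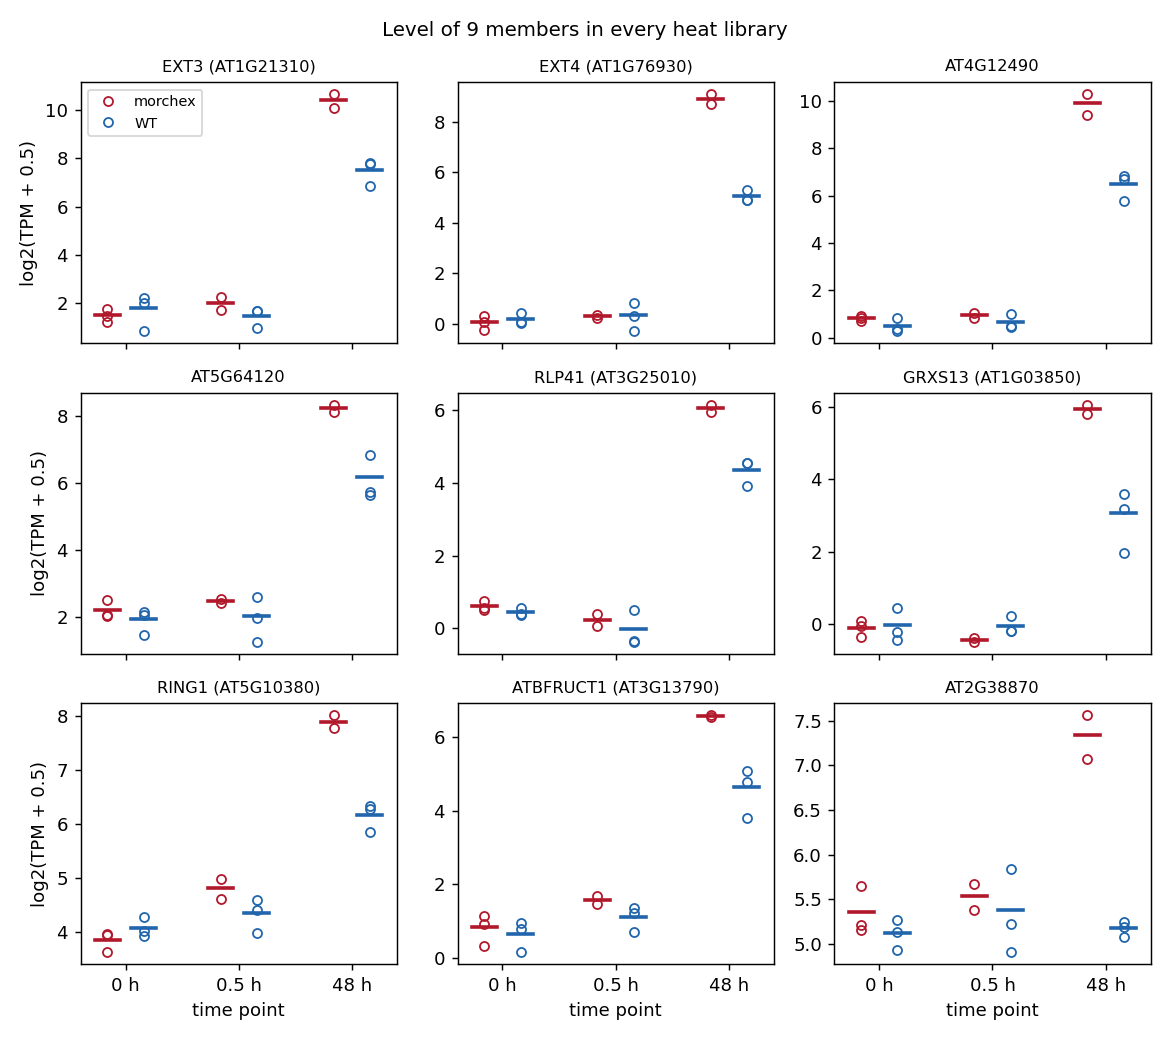
Level of 9 members, as log2(TPM + 0.5), in every heat library at 0 h, 0.5 h and 48 h, with morchex in red on the left and WT in blue on the right of each time, and bars for group means. At 48 h the morchex points lie above the WT points in each panel, and AT2G38870 is the panel in which WT at 48 h lies within the WT range of the earlier times.

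Receptors and resistance proteins kept close to the limit, with ratios from 3.02 to 3.99 over 15 members. RLP40, RLP41 and RLP42 are receptor-like proteins from neighbouring genes, 3 members among 6 genes on chr3:9106000-9119804, and RLP42 recognises fungal polygalacturonases. RLP41 had 62.0 and 71.0 TPM in morchex at T48, against 22.9, 14.6 and 22.9 TPM in WT. RLP42 had 54.0 and 61.3 TPM against 14.2, 13.8 and 22.7 TPM, and RLP40 had 60.6 and 47.9 TPM against 15.67, 4.06 and 27.8 TPM. The genotypes did not overlap in these genes, though RLP40 varied almost 7-fold between WT libraries. Since the genes are similar, reads may have been divided unevenly between them. Further from the cluster, RLP43 had a mean of 12.5 TPM in morchex and 3.31 TPM in WT, RLP35 had 4.62 TPM and 0.78 TPM, RLP20 had 4.26 TPM and 0.74 TPM, and RLP7 had 3.46 TPM and 0.69 TPM.

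The receptor kinases followed the same pattern. IOS1, a leucine-rich repeat kinase of pattern-triggered immunity, had 13.4 and 12.7 TPM in morchex at T48, against 4.69, 2.46 and 4.16 TPM in WT. AT1G51890, of the same family, had 20.8 and 20.1 TPM against 8.61, 2.53 and 7.65 TPM. CRK13, CRK38 and CRK12 are cysteine-rich receptor kinases, and CRK12 and CRK13 are neighbours on chr4:12145035-12151638. CRK13 had means of 15.2 TPM in morchex and 4.52 TPM in WT, CRK38 had 7.39 TPM and 2.1 TPM, and CRK12 had 6.84 TPM and 1.93 TPM. In each of these kinases WT replicate 2 was the lowest library. LECRKA4.1, a lectin receptor kinase, had 5.91 and 7.01 TPM in morchex against 3.22, 0.39 and 0.32 TPM in WT, so 1 WT library stood well above the others. Of 2 resistance proteins, AT4G16960 had means of 6.80 TPM in morchex and 1.78 TPM in WT, and AT3G26470, with an RPW8 domain, had 5.27 TPM and 1.26 TPM.

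Proteases and their inhibitors included members that were already abundant before heat. AT2G38870, a potato inhibitor I-type protein, had 134 and 189 TPM in morchex at T48, against 33.3, 37.4 and 35.9 TPM in WT. At T0 it had 36.5, 49.5 and 35.1 TPM in morchex and 34.7, 38.0 and 30.0 TPM in WT. The WT level at T48 was thus that of T0, and the ratio of T48 to T0 was 3.96 in morchex and 1.04 in WT. ATSBT5.2, a subtilisin-like protease, showed the same course, with 43.2 and 54.5 TPM in morchex at T48, against 11.8, 11.4 and 16.6 TPM in WT, and T0 means of 16.2 TPM in morchex and 14.9 TPM in WT. AT1G17860, a Kunitz-type inhibitor, had 57.2 and 72.9 TPM against 15.1, 18.7 and 21.7 TPM. KTI1, another Kunitz inhibitor that limits pathogen-induced cell death, had 21.3 and 61.5 TPM against 14.0, 0.42 and 6.92 TPM, with a large spread in both genotypes. The subtilases SBT3.5 and SBT3.3, the second of which takes part in immune priming, are neighbours on chr1:11937183-11948650. SBT3.5 had means of 25.6 TPM in morchex and 7.60 TPM in WT, and SBT3.3 had 11.9 TPM and 2.83 TPM. The chitinases AT2G43620 and HCHIB, a basic chitinase, had means of 37.0 and 12.3 TPM in morchex, against 7.93 and 3.12 TPM in WT.

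Of the regulators, RING1, a membrane-bound ubiquitin ligase that promotes cell death, had 219 and 259 TPM in morchex at T48, against 77.2, 57.2 and 79.9 TPM in WT. AT1G28400, annotated as a GATA zinc finger protein, had 200 and 266 TPM against 51.2, 79.8 and 70.3 TPM, and was the most abundant member before heat, at 45.0 TPM in morchex and 42.2 TPM in WT. WRKY8, a transcription factor of defence and salt stress, had 18.0 and 19.3 TPM against 5.19, 4.02 and 8.42 TPM. GASA5, a small gibberellin-regulated peptide, had 10.1 and 15.4 TPM against 0.21, 1.11 and 1.69 TPM, with a ratio of 8.83. LBD11, a LOB-domain factor, had 14.6 TPM in morchex and 4.46 TPM in WT on average, AT2G42360, a RING/U-box protein, had 25.0 TPM and 6.33 TPM, and the NAC factor ANAC087 had 2.33 TPM and 0.40 TPM.

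Redox and metabolic enzymes made up the largest named role. GRXS13, a CC-type glutaredoxin, had 55.7 and 66.5 TPM in morchex at T48, against 11.5, 3.42 and 8.64 TPM in WT, a ratio of 7.38. AT5G24200, an alpha/beta-hydrolase, had 74.9 and 88.4 TPM against 25.4, 18.0 and 32.8 TPM, and AT5G55050, a GDSL lipase, had 89.0 and 84.9 TPM against 24.4, 24.3 and 34.7 TPM. The groups did not overlap in any of these enzymes. NIT2, a nitrilase that can make auxin from indole-3-acetonitrile, had means of 19.8 TPM in morchex and 3.47 TPM in WT. The glutathione transferases GSTU11 and GSTU8 had 23.4 and 7.65 TPM in morchex, against 6.20 and 2.02 TPM in WT. ELI3-2, a cinnamyl alcohol dehydrogenase, had 16.9 and 19.5 TPM in morchex against 5.60, 0.60 and 10.9 TPM in WT, and its WT libraries were far apart. PAL4, of the entry step to phenylpropanoids, had 3.29 and 3.42 TPM against 0.41, 0.13 and 0.60 TPM, and its ratio of T48 to T0 was 3.73 in morchex and 0.78 in WT. AMY1, an alpha-amylase, had 9.75 TPM in morchex and 1.55 TPM in WT on average.

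The 12 transporters and channels had T48 ratios from 3.06 to 4.71. UMAMIT40, of an amino acid exporter family, had 44.5 and 57.1 TPM in morchex at T48, against 12.7, 15.72 and 17.5 TPM in WT. PMT6, a polyol and sugar transporter, had 43.2 and 40.6 TPM against 16.7, 5.88 and 9.04 TPM, and DUR3, a urea symporter, had 33.8 and 32.8 TPM against 10.8, 6.50 and 14.3 TPM. OPT1 and PTR3, which carry oligopeptides, had means of 20.3 and 18.4 TPM in morchex, against 5.35 and 3.94 TPM in WT. The amino acid carriers AAT1 and AAP3 had 7.83 and 5.83 TPM in morchex, against 1.77 and 1.18 TPM in WT. None of these 7 overlapped between genotypes at T48, which the rule sets and which held for all 116 members tested.

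Among the other members, AT1G65500 had 257 and 355 TPM in morchex at T48, against 71.4, 110 and 120 TPM in WT. AT1G65845 had 145 and 153 TPM against 53.6, 38.5 and 46.0 TPM, and AT1G21520 had 121 and 126 TPM against 49.0, 25.1 and 43.0 TPM. AT5G52390, a PAR1 protein, had 58.1 and 119 TPM against 6.09, 27.8 and 28.0 TPM. The genotypes were apart in all of them, by the least in AT5G52390. A run of 4 uncharacterised genes on chr5:17964416-17975120, AT5G44570, AT5G44572, AT5G44574 and AT5G44575, consisted of members only, with morchex means at T48 of 8.15, 22.5, 2.54 and 33.4 TPM, against 1.83, 6.28, 0.27 and 5.02 TPM in WT. In all, 7 runs of 2 to 4 members lay within 10000 bp of each other.

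A few members rested on very few reads. The 9 members AT2G13422, AT1G03502, AT4G25707, AT4G05071, ATMG00990, AT2G34238, AT3G09863, AT5G01849 and AT3G57072 were listed at 0 in 1 of the 2 morchex libraries and in all 3 WT libraries at T48. ATMG00990 had 35 counts in the other morchex library, and each of the others had 1 to 3. The ratio of 80.5 for AT2G13422, the highest of all, came from 2 counts, which were worth 79.5 TPM in so short a transcript. None of the 9 passed the count filter. Of the remaining 4 that did not pass, CLE21, which encodes a signalling peptide, had 3.49 and 4.45 TPM in morchex and 1.82, 0 and 0.56 TPM in WT. AT5G44574, ATMG00630 and AT3G53365 were the others.

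In 35 members the WT ratio of T48 to T0 lay between 0.5 and 2, and in 6 the WT ratio of T48 to T0 was 0.5 or less. These were LpxC3, AT5G07842, CLE21, AT2G34238, AT3G53365 and AT2G04852. LpxC3, a deacetylase of lipid A synthesis, had means of 9.49 TPM in morchex and 2.38 TPM in WT at T48, and of 5.16 TPM in morchex and 5.74 TPM in WT at T0. Its difference at T48 thus joined a ratio of T48 to T0 of 1.77 in morchex with one of 0.46 in WT. LpxC3 has near-identical copies, so that the split of reads between them is uncertain.

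The libraries at T48 were not equally spread. The highest and lowest library differed by a median of 1.26-fold in morchex, with 2 libraries, and 1.96-fold in WT, with 3, over the members tested. WT replicate 2 was the lowest WT library for 69 of 116 members, and morchex replicate 3 was the higher morchex library for 93. Of the 16 genes on a list of salicylic acid immunity, 13 were also lowest in WT replicate 2 at T48, with CBP60G, a regulator of salicylic acid synthesis, at 21.8, 4.04 and 14.2 TPM in WT replicates 1, 2 and 3. The summed level of that list lay between 4872 and 7503 TPM in morchex and between 2119 and 2914 TPM in WT at T48, and its part in the members' ratios was not tested. With each of the 16 heat libraries left out in turn, 99 to 184 genes met the rule, and 42 members met it every time. These included EXT4, AT4G12490, AT4G12500, AZI1, GRXS13, GASA5, PTR3, PAL4, RLP42, XTR6 and AT2G38870. EXT3, AT5G64120 and RING1 met it with each of the 5 T48 libraries left out, as 60 members did, but lost it when a library of T0 or T30 was left out.

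The rule limited the ratio of the genotypes at T0 and at T30, so that a gene that changed strongly in only 1 genotype after 0.5 h of heat could hardly be a member. The calls from T0 to T30 within each genotype are therefore given as a description, and nothing is read from their share against that of all genes. In morchex, 2 of 116 members rose and 1 fell from T0 to T30, 1.72% and 0.862%, against 5.59% and 5.17% of 18827 genes (edgeR quasi-likelihood test, Benjamini-Hochberg adjusted p under 0.05 and a fold change over 2). In WT, 3 rose and 4 fell, 2.59% and 3.45%, against 6.21% and 7.20% of all genes. DESeq2 called 7 members in morchex and 11 in WT. Its share of all genes is not given here, so nothing is read from these counts. The median log2 fold change of the members was 0.09 in morchex and 0.00 in WT, against −0.01 and −0.03 over all genes tested. In 77 of the 129 members both genotypes had means under 0.5 TPM at T0 and at T30, where changes were hardly detectable at this depth. The count filter was run on all heat groups together. Members with few reads at T0 and T30 could thus pass it through their T48 libraries, which the rule had used. Their calls and p-values at T30 are a description only.

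RING1 rose in morchex and had 31.1 and 23.8 TPM at T30, against 14.9, 11.8 and 15.0 TPM at T0 (log2 fold change 1.26, SE 0.19, adjusted p = 0.000207 by edgeR). The T30 libraries were above all T0 libraries. In WT it had 15.4, 23.7 and 20.8 TPM at T30, against 15.71, 18.8 and 14.7 TPM at T0, with overlap. Its log2 fold change in WT was 0.68, under the fold limit but with an adjusted p of 0.00882 by edgeR. ATBFRUCT1 rose in morchex, with 2.71 and 2.25 TPM at T30 against 1.69, 1.39 and 0.76 TPM at T0 (log2 fold change 1.25, SE 0.38, adjusted p = 0.023 by edgeR). In WT its log2 fold change was 0.94, not past the threshold (adjusted p = 0.0982 by edgeR). A difference between genotypes was not tested for either gene.

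In WT, XTR6, AAP3 and RLP42 were called higher at T30, from low levels. When only the WT libraries at T0 and T30 were filtered and fitted, the members called were RLP42, PAL4 and AT5G24200. XTR6, AAP3, ANAC087 and PTR3 were not called in that fit. XTR6 had 0.50, 0.10 and 0.61 TPM at T30, against 0, 0.10 and 0 TPM at T0 (log2 fold change 3.65, SE 1.16, adjusted p = 0.0214 by edgeR). AAP3 had 0.96, 0.44 and 0.33 TPM at T30, against 0.15, 0.15 and 0.28 TPM at T0 (2.04 on the log2 scale, SE 0.60, adjusted p = 0.015 by edgeR). RLP42 had 1.65, 1.39 and 3.59 TPM against 1.06, 1.60 and 1.04 TPM, and replicate 3 carried most of its change. In morchex RLP42 had 2.37 and 2.21 TPM at T30, against 1.41, 1.04 and 1.79 TPM at T0. That log2 fold change of 0.96 was just under the fold limit (adjusted p = 0.0374 by edgeR), and a difference between genotypes was not tested. Without WT T30 replicate 3, RLP42 did not pass (log2 fold change 0.69, adjusted p = 0.0867 by edgeR), and 4 members in all were called in WT. XTR6, AAP3, ANAC087 and PTR3 in WT and ATBFRUCT1 and AT5G24200 in morchex were also lost with other single libraries left out, with adjusted p up to 0.307 by edgeR.

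The members that fell at T30 were AT5G24200 in both genotypes, and PAL4, ANAC087 and PTR3 in WT. AT5G24200 had 0.43 and 0.07 TPM in morchex at T30, against 0.90, 1.05 and 0.68 TPM at T0, and 0.11, 0.23 and 0.15 TPM in WT at T30, against 1.2, 1.01 and 0.99 TPM at T0. Its log2 fold changes were −1.59 in morchex and −2.34 in WT (SE 0.51 and 0.58, adjusted p = 0.0288 and 0.00529 by edgeR). PAL4 had 0.11, 0.19 and 0.04 TPM in WT at T30, against 0.43, 0.80 and 0.66 TPM at T0, with no overlap (log2 fold change −2.04, adjusted p = 0.0124 by edgeR). ANAC087 and PTR3 changed by −2.25 and −3.01 on the log2 scale in WT (adjusted p = 0.015 and 0.0464 by edgeR). The same genes in morchex changed by −0.82 for PAL4, −1.08 for ANAC087 and −1.46 for PTR3, none past the threshold, and a difference between genotypes was not tested.

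**Figure D4:**
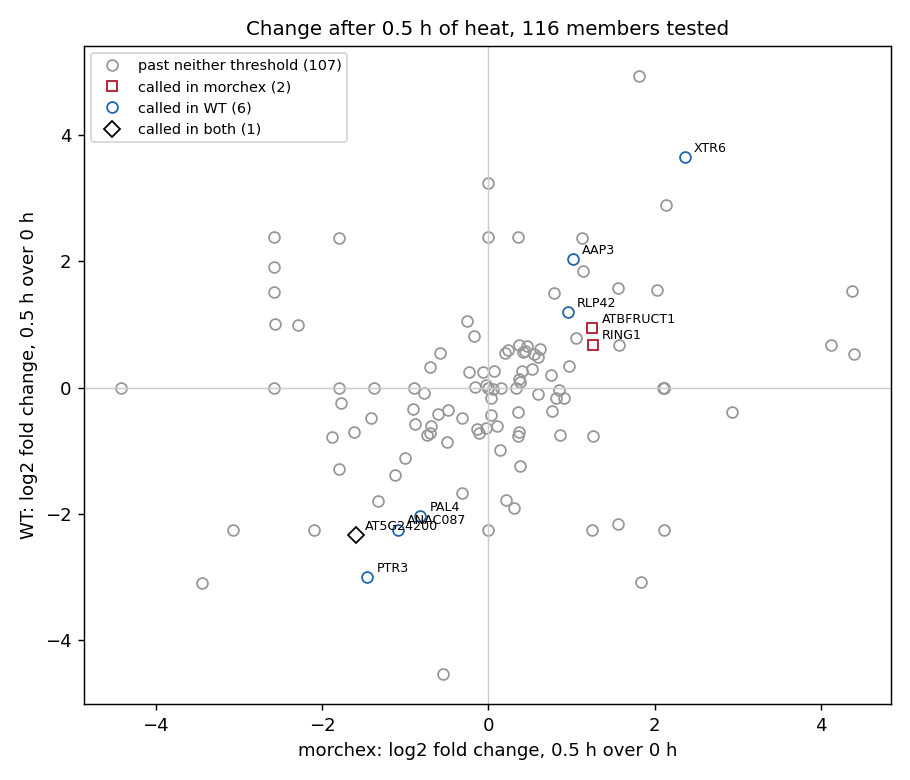
Log2 fold change from 0 h to 0.5 h, in morchex on the x axis and WT on the y axis, for the 116 members tested, with marks for those past the threshold. The plot shows 2 genes called in morchex, 6 in WT and 1, AT5G24200, in both.

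Genes of related pathways, from lists chosen with earlier results known, set the members in context at T48. All 16 genes of the salicylic acid immunity list were called higher at T48 than at T0 in both genotypes, with median log2 fold changes of 4.76 in morchex and 3.89 in WT, against 0.03 and 0.01 over all genes. Of all genes, 13.8% were called higher and 12.4% lower at T48 than at T0 in morchex, and 9.39% and 4.30% in WT. With no unheated plants at T48, recovery from heat and time cannot be told apart in these changes. Between genotypes at T48, 3 of the 16 were called higher in morchex and none lower, where 2.89% and 3.31% of all genes were, with a median of 0.61 against 0.02 over all genes. These were PR1, PR2 and PR5, antimicrobial proteins of the salicylic acid pathway. PR1 had 1127 and 2657 TPM in morchex, against 180, 557 and 393 TPM in WT, and WRKY70, a regulator of the pathway, had 577 and 557 TPM against 452, 386 and 545 TPM. Among 12 jasmonate and ethylene defence genes tested, VSP1 was called lower. HCHIB was called higher, but it is a member chosen by its T48 values, so nothing is read from that call. It was the only member on any of the lists. Of 9 senescence genes tested, SAG101 and SAG13 were called higher in morchex, SAG13 with 216 and 290 TPM in morchex, against 108, 41.8 and 113 TPM in WT. Of 21 heat shock genes tested, HSFB1 was called higher, and the median of the list was 0.09. All 9 photosynthesis genes were called lower at T48 than at T0 in morchex and 5 in WT, and none differed between genotypes past the limits.

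Other lists held genes that were lower in morchex at T48. Of 8 flavonoid synthesis genes tested, TT4, F3H, FLS1 and the regulator PAP1 were called lower, and the median log2 fold change of the list was −1.58. TT4, the chalcone synthase that starts the pathway, had 25.6 and 10.5 TPM in morchex, against 49.8, 84.5 and 54.7 TPM in WT. Of 6 cuticle and lipid transfer genes, CER1, LTP1 and LTP2 were called lower, and the median was −1.34. LTP1, a lipid-transfer protein that is no member, had 423 and 407 TPM in morchex, against 1765, 1395 and 1368 TPM in WT. Of 14 abscisic acid, cold and drought genes, RD22, COR15A, COR15B and KIN2 were called lower, with a median of −0.61, and of 7 genes of a SAUR cluster, SAUR63, SAUR66 and SAUR67, with a median of −1.03. CDF1, 1 of 14 clock genes, the tapetum list's TKPR2 and the nectary list's JMT were called lower too. Of these last 2 lists, 4 of 25 tapetum genes and 1 of 4 nectary genes could be tested. On the pollen list, with 12 of 41 genes tested, LRX10 was called higher and LRX9 lower. No gene was called between genotypes at T48 on the lists of late stamen, floral terpene synthase, ovule and seed, secondary wall and floral homeotic genes. In that order, 7 of 15, 2 of 7, 3 of 24, 10 of 11 and 3 of 7 genes were tested. The other genes of these lists had too few reads, so nothing is known of a difference in them.

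In the lug experiment no member was called. None of the 64 members with enough reads passed the limits for lug against Ler in the edgeR quasi-likelihood test, where 0.210% of 17643 genes were higher and 0.204% lower. The smallest adjusted p among them was 0.596 by edgeR. At an unadjusted p under 0.05, AT4G16960 was higher, by 1.14 on the log2 scale, and PMT6 and AMY1 had log2 fold changes of −0.84 and −4.28, so that with no fold limit 1 member was higher and 2 were lower, where 3.96% and 3.37% of all genes were. DESeq2 called 1 member lower, for which no share of all genes is given here. Their median log2 fold change was −0.30, against 0.01 over all genes.

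The members varied widely among these unheated plants. Their summed level was 368, 658 and 200 TPM in lug and 293, 1186 and 526 TPM in Ler, so the groups overlapped. EXT4 had 1.84, 2.21 and 0.16 TPM in lug, against 0.50, 73.1 and 1.27 TPM in Ler, and EXT3 had 9.38, 19.2 and 2.29 TPM against 5.59, 99.7 and 18.4 TPM. A single Ler library, replicate 2, thus held most of the extensin RNA of that group. RING1 had 53.3, 95.2 and 8.09 TPM in lug, against 22.2, 32.2 and 120 TPM in Ler, with its highest value in another Ler library, replicate 3. These tables also list transposable elements, so TPM values are not set against those of the heat libraries.

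Binding of the corepressors TOPLESS (TPL) and LUG was measured by ChIP-seq of FLAG-tagged proteins in plants that were not labelled as heated, with 1 library per protein and genotype. A gene was counted when a peak summit lay from 1000 bp before to 200 bp after its annotated start. A TPL summit lay at 19 of 125 placed members in morchex, 15.2% (exact 95% interval 9.41 to 22.7%), against 19.1% of 32835 genes. In WT it lay at 13 members, 10.4% (5.66 to 17.1%), against 14.2% of all genes. Among peaks with a −log10 q of at least 10, TPL summits lay at 2 members in morchex, 1.60% (0.194 to 5.66%) against 7.33% of all genes, and at 1 in WT, 0.80% (0.0203 to 4.38%) against 3.60%. Both genotypes had a summit at 11 members, morchex alone at 8 and WT alone at 2. A LUG summit lay at 2 members in morchex, 1.60% (0.194 to 5.66%), against 7.44%, and at 0 of 125 in WT, with an upper limit of 2.91%, against 3.56%. These intervals cover counting error only, and with 1 library each no test between genotypes was made.

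The strongest TPL peak at a member was at PAL4, at −421 bp from its start in morchex with a −log10 q of 26.4, and at −426 bp in WT with 16.2. UMAMIT40 had a summit at −362 bp from its start in morchex (−log10 q 19.6) and at −330 bp in WT (7.0). These were the only members past a −log10 q of 10 in morchex, and PAL4 was the only one in WT. RLP42, AT5G55050 and AT1G21520 had weaker summits in both genotypes, AT5G64120 had one in morchex alone (−log10 q 4.23) and AT2G38870 in WT alone (3.11). The members with a LUG summit were AT5G52390 and AT5G44570, which also had TPL summits in both genotypes. EXT3, EXT4 and the AZI1-type genes had no summit of either protein in the window.

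**Figure D5:**
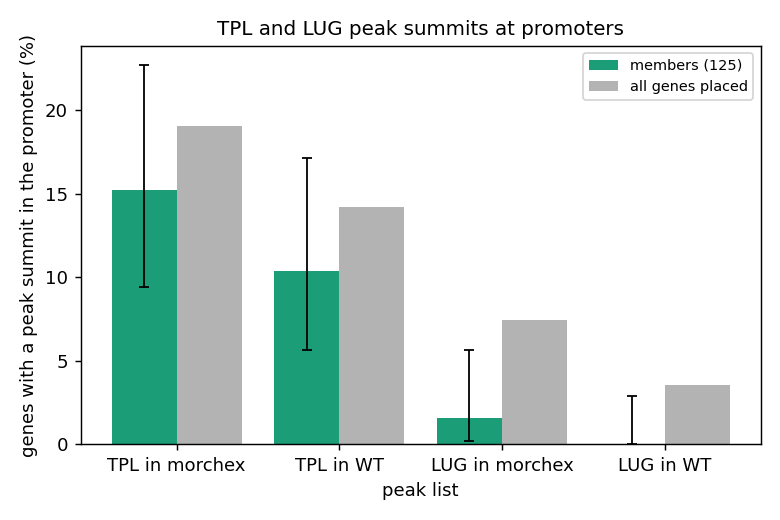
Percent of genes with a peak summit in the promoter in each of the 4 peak lists, for the 125 placed members (green, with exact 95% intervals) and for all placed genes (grey). With all peaks of the lists, the TPL intervals of the members include the share of all genes, and the LUG bars of the members, at 1.60% in morchex and 0 in WT, lie below it.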

How the data were processed

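Expected counts from RSEM, with TPM and FPKM, were deposited by the authors as 1 table per RNA-seq library, with reads from a stranded TruSeq mRNA kit aligned to TAIR10 by Bowtie2 2.1.0 (version from the methods). The FPKM values deposited by the authors entered an alternative only. The authors' MACS2 2.1.1 peak lists gave, per the file columns, a score, a fold ratio, −log10 p and −log10 q and the summit, each from 1 ChIP library.

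The members, gene lists and roles were chosen with earlier results of these data known. Expected counts were rounded, filtered with filterByExpr and fitted with edgeR 4.0.16 (TMM, quasi-likelihood, R 4.3.3), all 16 heat libraries in 1 fit and the 6 lug and Ler libraries in another. Calls needed a Benjamini-Hochberg adjusted p under 0.05 together with more than a 2-fold change. An unadjusted p was an alternative. The fits were tested on simulated counts. The rule for named genes took the 12 members with the highest T48 mean in morchex, the 10 with the largest T48 ratio, those on a list, up to 4 per annotation-word group, those called in a test, up to 6 with a summit, and 3 on each side of the limit. Other members were named by role after their values were seen. Annotation and promoters came from RefSeq TAIR10.1, in which 125 of 129 members have a locus. Alternatives were DESeq2 1.42.0, filters, pseudocounts, means, left-out libraries, a replicate block and other peak windows. The ATAC-seq samples were not analysed here.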

Additional observations from a re-analysis of the deposited data

How the results depend on the processing

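The number of genes that met the rule was 129 and stayed within 1.5 times of that under all 22 alternatives. It was 105 with a pseudocount of 0.1, of which 78 were members, 90 with TMM-normalized counts per length, 94 with at least 5 TPM and 146 with geometric means, and 99 to 184 with 1 library left out. The 7 members called at T30 in WT became 3 when only the compared groups were fitted, 11 with DESeq2, 12 at an unadjusted p with the 2-fold limit kept and 12 with no fold limit, and 4 to 7 with 1 library left out. The 3 called in morchex became 7 with DESeq2, 9 at such an unadjusted p and 5 with no fold limit, and 2 to 3 with 1 library left out. The 0 called in lug became 1 with DESeq2 and 2 at an unadjusted p with the 2-fold limit kept, which PMT6 misses, and 0 with each library left out. The share of all genes called is not given for these alternatives, so nothing is read from the member counts. Of 10 calls on single members, 7 were lost when at least 1 library was left out, and none reversed. All genes called between genotypes at T48 numbered 1169, with 673 to 1460 when 1 library was left out, of which 752 without WT replicate 2, 746 without morchex replicate 2 and 673 without morchex replicate 3, and 4740 with no fold limit. TPL summits at 19 members in morchex became 2 at a −log10 q of at least 10 (1.60% against 7.33% of all genes) and 33 with 3000 bp upstream (26.4% against 30.9%), and 13 in WT became 1 (0.80% against 3.60%) and 23 (18.4% against 24.5%). LUG summits at 2 members in morchex became 0 (against 2.03% of all genes), and 4 with 3000 bp or any overlap (3.20% against 13.5% and 8.81%), and 0 in WT became 1 with 3000 bp (0.80% against 7.13%). The causes were not tested, apart from the number of genes or sites that each limit admits. Replicate numbers were not treated as pairs. Correlations of same-numbered deviations were −0.03, 0.10 and 0.05 for T30 and T0 in WT and 0.03 and 0.12 in morchex. They were −0.16 and −0.03 for the genotypes at T48, and −0.25, −0.01 and −0.51 for lug and Ler. Correlations of other-numbered deviations lay, in that order, from −0.11 to 0.05, −0.12 to 0.12, −0.17 to 0.17 and −0.36 to 0.43. With so few libraries per group the deviations depend on each other, so these values cannot exclude a pairing. With the number as a replicate block the calls were 7 in WT, 6 in morchex, 0 in lug and 1166 for all genes at T48. The low counts of most members at T0 and T30 limit what could be detected there.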
